A study of Mus musculus with 6 samples.

Results

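The Slc30a family encodes the ZnT proteins, most of which move zinc out of the cytosol, either across the plasma membrane or into vesicles and organelles. All 10 listed genes, Slc30a1 to Slc30a10, were found among the 19938 genes named on the array, each by 1 probe set (a group of probes read as 1 value) that names no other gene. Of these, 9 were among the 14953 genes that passed the filter on mean intensity, and Slc30a8 was not. The members were chosen by family name, and the family itself was selected on the measured DPM minus vehicle difference of Slc30a2 in earlier results of these data. The difference of Slc30a2 between the groups is therefore a description and carries no test here.

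The data were 1-colour Affymetrix array intensities of total RNA from 6 mammary tumours of female MMTV-PyMT+ mice of the FVB strain at 15 weeks of age. In 3 tumours the mice had received DPM at 10 mg/kg, and in 3 they had received vehicle. Injections into the peritoneum began at 4 weeks of age and ran for 11 weeks, with 5 days on and 2 days off, in arms of 10 and 7 mice. The labels give only the abbreviation DPM. From knowledge of the study it stands for dipyridamole, a drug that blocks nucleoside uptake and phosphodiesterases. The animals of both groups carried the transgene, polyoma middle T antigen under the MMTV promoter, which is active in mammary epithelium, so no group lacked the oncogene. The labels call the arrays of a group biological replicates without saying that the tumours came from separate mice. The p-values set a difference against the spread between these tumours, which may not cover the spread between mice. Each DPM array was closest in its values to a different vehicle array. All SEs, intervals and p-values here take the tumours as unpaired. Of 9 luminal epithelial markers 8 passed the filter, and Pgr was below it. Passing the filter is not a detection call, since 3 of 6 beta cell markers and 4 of 6 neuron markers passed too.

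ZnT proteins work against importers of the Slc39a (ZIP) family, which bring zinc into the cytosol, and metallothioneins bind what is free there. In the mammary gland zinc is secreted into milk through vesicles. Loss of ZnT2 function in nursing mothers gives zinc-poor milk, and the lethal milk mouse carries a mutation of Slc30a4. Transcription of Slc30a1 and of the metallothionein genes Mt1 and Mt2 is raised by zinc through the metal-sensing factor MTF1, which binds metal response elements.

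The start regions of these zinc-responsive genes are shown because their mRNA levels are given beside the exporter values. Zinc itself was not measured in these data. The sequences are from RefSeq (build GRCm38.p6), run from 250 bases before to 50 after the annotated start, and read 5′ to 3′ along the gene. Capitals mark the metal response element core, TGCACNC or TGCGCNC, on either strand.
Slc30a1, chr1:191906531-191906830, + strand: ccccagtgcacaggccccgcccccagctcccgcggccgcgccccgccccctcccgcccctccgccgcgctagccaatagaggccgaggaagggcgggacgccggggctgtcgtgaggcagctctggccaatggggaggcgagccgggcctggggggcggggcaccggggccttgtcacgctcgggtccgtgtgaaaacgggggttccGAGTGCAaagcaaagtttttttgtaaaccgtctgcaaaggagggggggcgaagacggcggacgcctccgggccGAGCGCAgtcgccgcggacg
Mt1, chr8:94178839-94179138, + strand: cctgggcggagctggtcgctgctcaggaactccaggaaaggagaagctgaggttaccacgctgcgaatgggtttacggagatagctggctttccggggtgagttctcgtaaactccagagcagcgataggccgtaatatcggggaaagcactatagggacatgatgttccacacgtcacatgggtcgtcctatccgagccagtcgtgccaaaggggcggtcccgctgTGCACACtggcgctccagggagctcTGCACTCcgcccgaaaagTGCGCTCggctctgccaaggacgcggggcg
Mt2, chr8:94172368-94172667, + strand: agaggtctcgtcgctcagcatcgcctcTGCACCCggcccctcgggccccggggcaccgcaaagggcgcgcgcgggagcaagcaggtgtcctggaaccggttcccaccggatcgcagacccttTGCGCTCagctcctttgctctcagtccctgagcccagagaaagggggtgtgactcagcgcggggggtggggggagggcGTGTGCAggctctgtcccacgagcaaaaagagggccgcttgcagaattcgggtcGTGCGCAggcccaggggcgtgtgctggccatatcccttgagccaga
Slc30a1 held 2 such matches, Mt1 held 3 and Mt2 held 4. For Slc30a2 the table's start lies 420 bases inside the gene, so its window is not the region upstream of the whole gene. It held 2 matches, both in the 30 bases shown next.
Slc30a2, chr4:134343248-134343277, + strand: tcccGCGCGCAacttcgaGGGCGCAccgag
The table held 10 windows for 9 of the family's genes. The core was present in 6 of these 10 windows and in 25.7% of the 32851 windows of the same length in the table. The 2 first matches of Slc30a10 overlap each other. The motif TTCNNNGAA, bound by STAT factors, was in none of the family's 10 windows and in 8.3% of all windows. A match here is a run of letters and was not tested for binding.

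Slc30a2 encodes ZnT2, which loads zinc into secretory vesicles of mammary and other secretory epithelia. Its deposited intensities were 617, 633 and 785 in the DPM tumours and 491, 491 and 485 in the vehicle tumours (replicates 1 to 3). After log2 transformation and quantile normalisation, which gives every array the same distribution, the levels were 9.37, 9.36 and 9.46 against 8.99, 9.01 and 8.80. All 3 DPM tumours lay above all 3 vehicle tumours, with a gap of 0.35 log2 between the closest members of the groups. The means were 9.39 ± 0.05 and 8.93 ± 0.12 (log2, SD, n = 3 each), a difference of 0.46, or 1.38 times the vehicle level. Within each group the arrays numbered 3 were the extreme ones, highest among the DPM tumours and lowest among the vehicle tumours. Without both of them the difference was 0.36, and without vehicle replicate 3 alone it was 0.39.

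Slc30a4 encodes ZnT4, the vesicular exporter affected in lethal milk mice. Its log2 levels were 9.96, 9.49 and 10.03 in the DPM tumours and 9.74, 9.71 and 9.88 in the vehicle tumours. The DPM tumours spanned the whole range of the vehicle tumours, from DPM replicate 2, the lowest of the 6, to DPM replicate 3, the highest. The means were 9.83 ± 0.29 and 9.77 ± 0.09 (n = 3 each), and the difference of 0.05 (SE 0.15) did not pass the test (limma adjusted p = 0.9996). Its 95% interval ran from -0.29 to 0.39, so it leaves room for changes of either sign. Leaving out DPM replicate 2 gave 0.22, and leaving out DPM replicate 3 gave -0.05.

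Slc30a1 encodes ZnT1, the exporter of the plasma membrane. Its log2 levels were 8.64, 8.83 and 8.80 in the DPM tumours and 8.82, 8.91 and 8.68 in the vehicle tumours, and the groups overlapped. The lowest value was that of DPM replicate 1 and the highest that of vehicle replicate 2. The difference was -0.04 (SE 0.10, 95% interval -0.28 to 0.20, limma adjusted p = 0.9996). Mt1 had a difference of 0.17 (SE 0.10) and Mt2 of 0.11 (SE 0.12), neither past the test. DPM replicate 1 had the highest level of Mt1 (12.29) and of Mt2 (13.52) among the 6 tumours, whereas it had the lowest of Slc30a1. Mtf1, the gene of the metal sensor, averaged 9.41 ± 0.13 in DPM and 9.41 ± 0.20 in vehicle tumours.

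**Figure D1:**
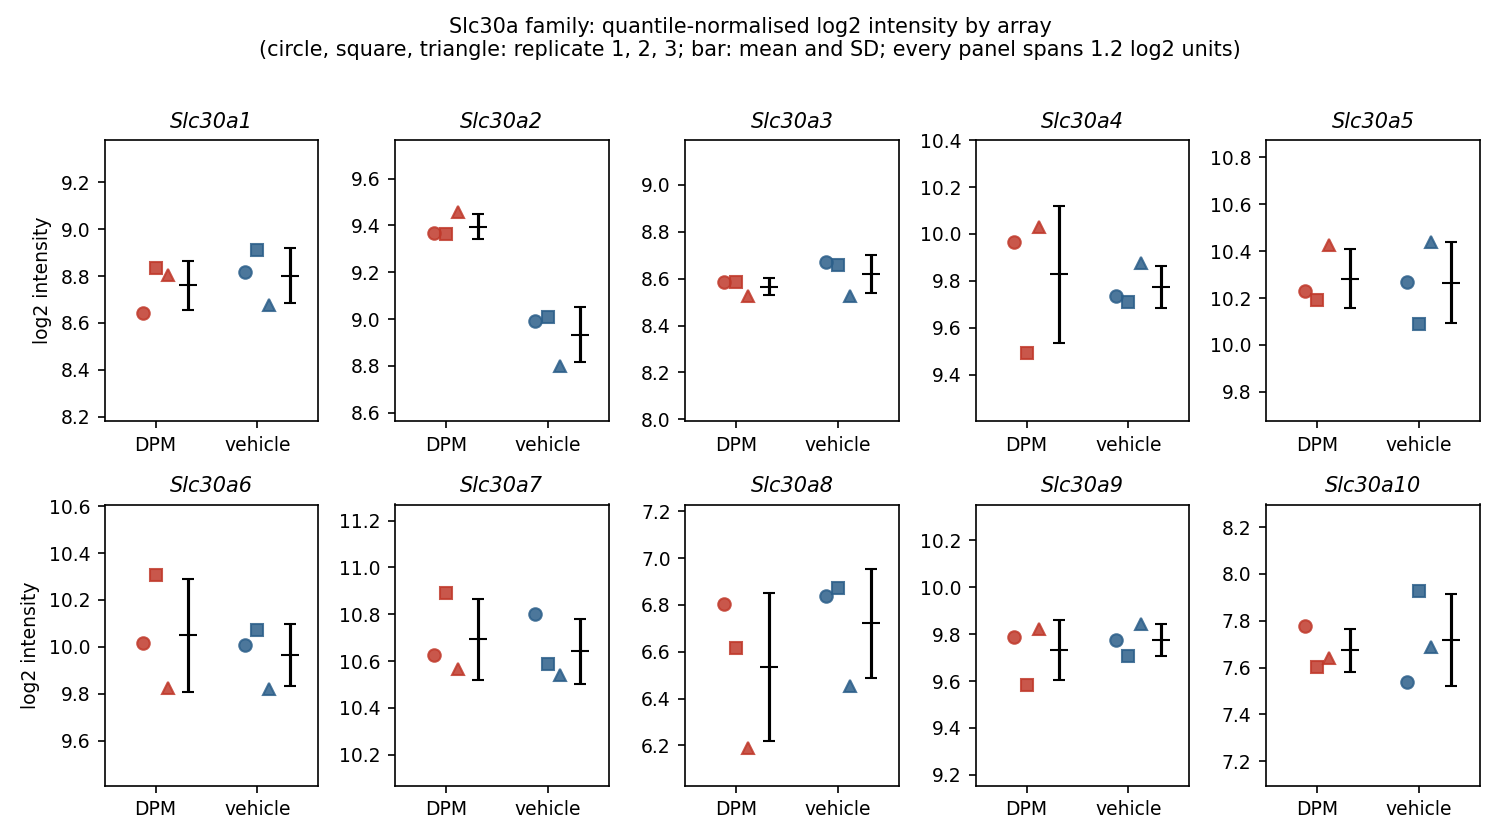
Quantile-normalised log2 intensity (vertical axis, 1.2 log2 units in every panel) of the 10 Slc30a genes in the 3 DPM tumours (red) and 3 vehicle tumours (blue), with the mean and SD of each group in black and replicates 1, 2 and 3 as circles, squares and triangles. In Slc30a2 the groups lie apart by 0.35, and in the other 9 genes they overlap. Panels have their own level, since the brightness of different probe sets cannot be compared.

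Slc30a5, Slc30a6 and Slc30a7 encode the exporters of the early secretory pathway. ZnT5 and ZnT6 form a heterodimer and ZnT7 a homodimer, and both supply zinc to enzymes such as alkaline phosphatase. Slc30a5 measured 10.23, 10.19 and 10.43 in the DPM tumours and 10.27, 10.09 and 10.44 in the vehicle tumours (log2), with the highest value of each group on the array numbered 3. Slc30a6 measured 10.02, 10.31 and 9.83 against 10.01, 10.07 and 9.82, with the lowest value of each group on that array. On the normalised scale the partners of 1 complex thus had opposite orders on these arrays. Slc30a7 measured 10.62, 10.89 and 10.57 against 10.80, 10.59 and 10.54, with DPM replicate 2 the highest, as for Slc30a6.

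None of these 3 genes differed between the treatments beyond the spread of the replicates. The differences were 0.02 (SE 0.12) for Slc30a5, 0.08 (SE 0.14) for Slc30a6 and 0.05 (SE 0.12) for Slc30a7, each with a limma adjusted p of 0.9996. The upper ends of their 95% intervals were 0.28, 0.40 and 0.32 log2. Without DPM replicate 2 the difference was -0.04 for Slc30a6 and -0.05 for Slc30a7.

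Slc30a9 encodes a ZnT protein of mitochondria. It measured 9.79, 9.58 and 9.82 in the DPM tumours and 9.78, 9.71 and 9.84 in the vehicle tumours, a difference of -0.04 (SE 0.10, limma adjusted p = 0.9996). Its lowest value, like that of Slc30a4, was in DPM replicate 2, where Slc30a6 had its highest. Slc30a10, which encodes an exporter of manganese, measured 7.78, 7.60 and 7.64 against 7.54, 7.93 and 7.69, with vehicle tumours at both ends of the range. Its difference was -0.04 (SE 0.12, limma adjusted p = 0.9996).

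Slc30a3 and Slc30a8 are best known from other cells, Slc30a3 from synaptic vesicles of neurons and Slc30a8 from insulin granules of pancreatic beta cells. Slc30a3 was the steadiest member, at 8.59, 8.59 and 8.53 in the DPM tumours and 8.67, 8.66 and 8.53 in the vehicle tumours. Its range of 0.15 log2 over the 6 tumours amounts to 1.11-fold, and only 7.59% of the genes tested had a smaller SD. The difference was -0.05 (SE 0.09, limma adjusted p = 0.9996). Slc30a8 had deposited intensities of 113, 93 and 76 against 111, 121 and 88, or log2 levels of 6.80, 6.61 and 6.19 against 6.84, 6.87 and 6.46. The groups overlapped, the mean difference was -0.19, and the filter at the 25th percentile of gene means (7.24 log2) removed it. No detection calls were used here, so it is not called absent. Of 6 markers each, 3 of beta cells and 4 of neurons passed the filter. Mean deviations of the beta cell list were -0.10 to 0.17 in DPM and -0.08 to 0.08 in vehicle tumours, and those of the neuron list -0.04 to 0.07 and -0.03 to 0.03. Their part in the Slc30a8 and Slc30a3 values was not tested.

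Across the family, 0 of the 9 members in the fit passed the adjusted threshold of 0.05, as did 0% of all 14953 genes. At an unadjusted p under 0.05 the fit held 578 genes (3.87%), and Slc30a2, chosen for this contrast, was the only one of the 9. Slc30a2 was also the only one of the 10 whose groups did not overlap, where 6.97% of all genes tested had groups apart: 3.49% with DPM higher and 3.48% with DPM lower. Since Slc30a2 was picked for that contrast, nothing is read from these counts. Among the other 8 tested, 4 had the higher mean in DPM and 4 in vehicle tumours, against 50.3% and 49.7% of all genes tested. Their differences ran from -0.05 to 0.08, with a median of -0.01 against 0.001 over all genes tested. The 95% intervals of these 8 lay between -0.33 and 0.40 log2, or 0.798 to 1.32 times the vehicle level, without adjustment for their number. The difference between Slc30a2 and the other members was not tested. Slc30a8, in the fit without a filter, had a wider interval, from -0.62 to 0.25.

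**Figure D2:**
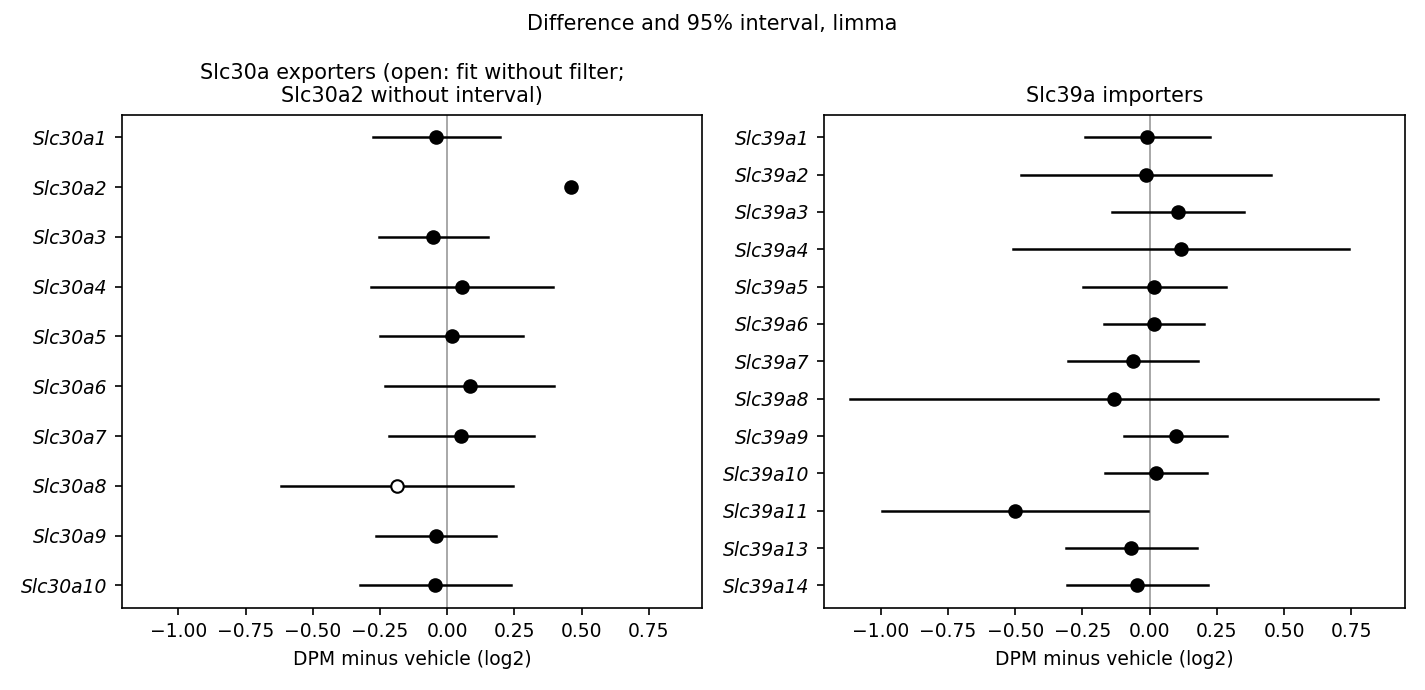
Difference of DPM minus vehicle tumours (log2, horizontal axis) with the 95% limma interval (3 tumours per group) for the Slc30a exporters and the 13 Slc39a importers tested. Slc30a2, chosen for this contrast, has no interval, and the open point is Slc30a8 from the fit without a filter. The other exporters lie between -0.19 and 0.08, and Slc39a11 is the importer farthest from 0, at -0.50.

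Several members shared a pattern across the arrays that ran across the treatments. The arrays numbered 3 had the highest deposited upper quartiles, 869 in the DPM and 887 in the vehicle group against 717 to 748 on the other 4. After quantile normalisation, Slc30a5 and Slc30a9 were higher on both of these arrays than on any other, and Slc30a3, Slc30a6, Slc30a7 and Slc30a8 were lower on both. That makes 5 of the 9 members tested, and 28.1% of all genes tested showed such a split of these arrays in either direction. On the deposited scale the pattern differed, with Slc30a3, Slc30a4, Slc30a5 and Slc30a9 above and only Slc30a8 below. The position of Slc30a3, Slc30a4, Slc30a6 and Slc30a7 on these arrays thus depends on the normalisation, whereas Slc30a5, Slc30a9 and Slc30a8 kept theirs. Slc30a2 did not split this way on either scale. This pattern was chosen after its values were seen, and the cause was not tested.

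**Figure D3:**
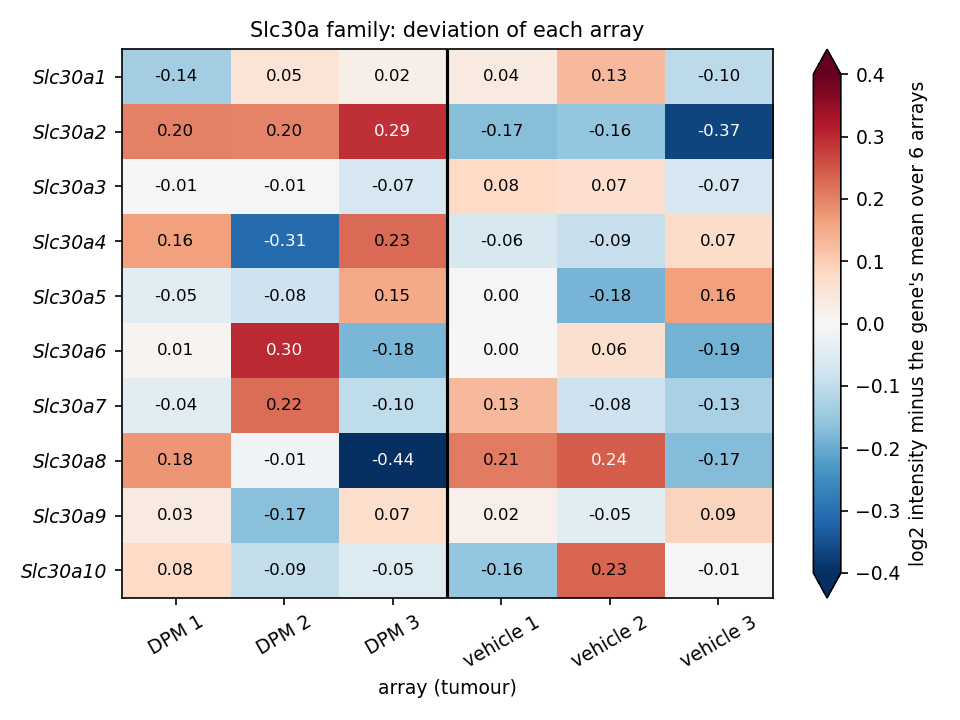
Log2 intensity of each Slc30a gene (rows) minus its mean over the 6 tumours, for each array (columns, DPM left and vehicle right of the line). Slc30a2 runs from 0.20 to 0.29 in DPM and from -0.37 to -0.16 in vehicle tumours, while Slc30a4 and Slc30a6 deviate by -0.31 and 0.30 in DPM replicate 2.

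The Slc39a importers were measured as the other arm of zinc transport. Of 14 genes, 13 passed the filter, 6 with the higher mean in the DPM group and 7 in the vehicle group, with a median difference of -0.01. None passed the adjusted threshold, and 1 had an unadjusted p under 0.05 in limma, against 3.87% of all genes tested. Slc39a11 had the smallest p, at 9.69, 9.83 and 10.01 in the DPM group and 10.64, 9.81 and 10.57 in the vehicle group. Its difference was -0.50 (SE 0.21, limma adjusted p = 0.9996), and vehicle replicate 2 lay among the DPM values. Slc39a9 differed by 0.10 (SE 0.08) and Slc39a3 by 0.10 (SE 0.11).

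Zinc buffering and sensing genes had 7 of 8 members past the filter, 5 with the higher mean in DPM and 2 in vehicle tumours, and a median difference of 0.05. None passed the adjusted threshold in limma, and 0 had an unadjusted p under 0.05, against 3.87% of all genes tested. After Mt1, the smallest p-values belonged to S100a9 (0.20, SE 0.14) and S100a8 (-0.15, SE 0.14), the zinc-binding calprotectin subunits of neutrophils, whose differences had opposite signs.

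Secreted and surface enzymes that need zinc obtain it in the secretory pathway, where most ZnT proteins act. Of 14 listed, 11 were tested, 6 with the higher mean in the DPM group and 5 in the vehicle group, with a median of 0.02. In limma 0 passed the adjusted threshold and 1 had an unadjusted p under 0.05, against 3.87% of all genes tested. Groups lay apart for 6.97% of all genes tested. Enpp3, Anpep and Nt5e are named for having the smallest p of the list. Enpp3, an ectonucleotide pyrophosphatase, measured 12.32, 12.33 and 12.30 in the DPM group and 12.02, 12.08 and 11.95 in the vehicle group, which lay apart. Its difference was 0.30 (SE 0.07, limma adjusted p = 0.949). The aminopeptidase gene Anpep differed by 0.28 (SE 0.12) and the ectonucleotidase gene Nt5e by -0.46 (SE 0.28). Alpl, a client of ZnT5 to ZnT7 named after its value was seen, differed by -0.25 (SE 0.16).

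Transporters of other minerals were 8 higher and 5 lower by mean in DPM tumours among 13 tested, with a median of 0.08. In limma 0 passed the adjusted threshold and 2 had an unadjusted p under 0.05, against 3.87% of all genes tested. Groups lay apart for 6.97% of all genes tested. Atp2b1, Slc31a1 and Tfrc are named for having the smallest p of the list. Atp2b1, a calcium pump of the plasma membrane, measured 11.53 ± 0.15 in the DPM group and 12.04 ± 0.07 in the vehicle group (SD, n = 3 each), which lay apart, and had a difference of -0.51 (SE 0.10, limma adjusted p = 0.817). The copper importer gene Slc31a1 differed by 0.20 (SE 0.08) with the groups apart, and the transferrin receptor gene Tfrc by 0.26 (SE 0.15).

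Milk and secretory genes of alveolar cells had the higher mean in DPM tumours for 18 of 20 tested, against 50.3% of all genes, with a median difference of 0.21. In limma 0 passed the adjusted threshold and 7 had an unadjusted p under 0.05, as did 3.87% of all genes. The list was chosen with earlier results of these data known. Their mean deviations were 0.10, 0.08 and 0.23 in DPM and 0.21, -0.53 and -0.08 in vehicle tumours, so the groups overlapped. Vehicle replicate 2 was far below the other vehicle tumours in this mean, though not in every gene of the list. Csn1s2a measured 9.33 there against 12.08 and 11.87 in vehicle replicates 1 and 3, whereas Cel measured 8.44 against 8.89 and 8.02. The Slc30a2 intensity of vehicle replicate 2 was equal to that of vehicle replicate 1 as deposited, at 491, and nearly so after normalisation. The median of the list was 0.12 without vehicle replicate 2 and 0.37 without vehicle replicate 1, where the difference of Slc30a2 was 0.50 and 0.49. Within the list 4 genes had groups apart with DPM higher and 1 with DPM lower, against 3.49% and 3.48% of all genes tested. The part of the milk list in the Slc30a2 values was not tested. Bhlha15, also called Mist1 and needed for the shape of secretory cells, measured 10.98, 11.05 and 11.23 in the DPM tumours and 10.67, 10.20 and 10.31 in the vehicle tumours. The means lay 0.69 apart. Bhlha15 was named with Slc30a2 in earlier results of these data, so this difference is a description and carries no test. Cel, a lipase of milk, differed by 0.79 (SE 0.23) and Mfge8, a milk fat globule protein gene, by -0.46 (SE 0.13). Marker lists of other cell types also had members on 1 side, where 49.7% of all genes had the lower mean in DPM tumours. Basal epithelial markers had the lower mean for 8 of 8 tested, with mean deviations of -0.35 to -0.06 in the DPM group and 0.08 to 0.30 in the vehicle group. Fibroblast markers were lower by mean for 7 of 7, with a greater median difference than the basal list (-0.30 against -0.24), and deviated by -0.74 to 0.24 in the DPM group and 0.07 to 0.30 in the vehicle group. Macrophage markers were lower by mean for 8 of 8, at -0.32 to 0.21 and -0.01 to 0.26. T cell markers were lower for 3 of 3, B and plasma cell markers for 2 of 2 and luminal markers for 6 of 8, whereas endothelial markers were higher for 5 of 6, skeletal muscle markers for 6 of 6 and adipocyte markers for 5 of 5. Adipocyte markers deviated by 0.92 in DPM replicate 1 and by -0.29 to 0.07 in the other 5 tumours. In bulk tumour RNA, fewer cells of a type and less RNA per cell cannot be told apart, and the part of these cell types in the Slc30a2 values was not tested.

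**Figure D4:**
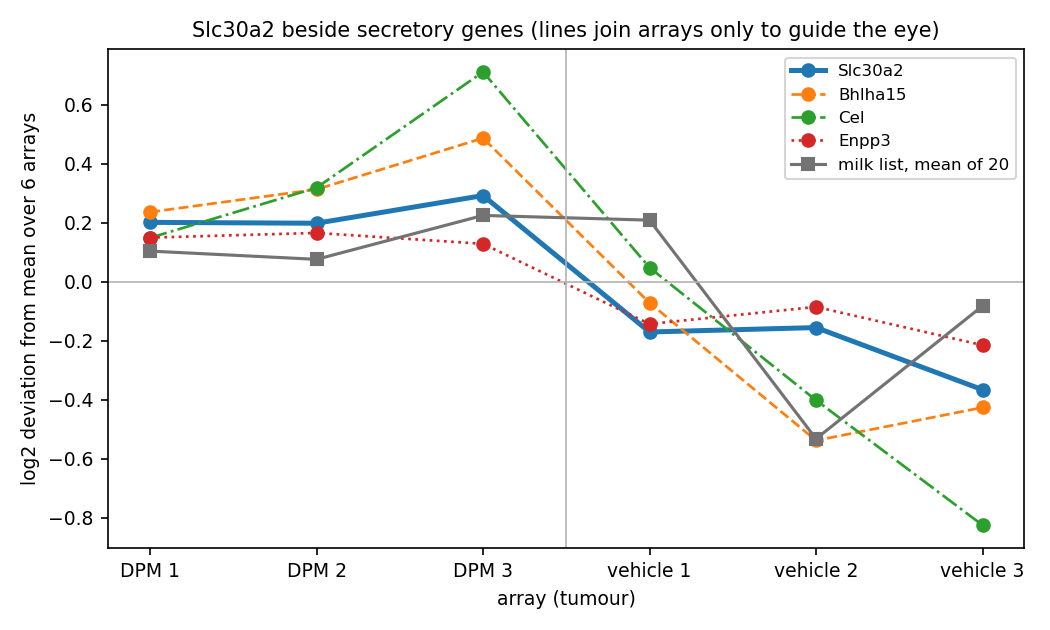
Log2 deviation from the mean over the 6 tumours (vertical axis) of Slc30a2, Bhlha15, Cel and Enpp3 and the mean deviation of the 20 milk and secretory genes tested, for each array (horizontal axis). Bhlha15, Cel and Enpp3 had r of 0.911, 0.912 and 0.975 with Slc30a2 over the 6 tumours, a measure that favours the contrast that chose it. Bhlha15 was named with Slc30a2 in earlier results of these data. Enpp3 is not of the milk list. Mfge8, 1 of 2 in that list with the lower mean in DPM, differed by -0.46 with the groups apart and is not drawn. Slc30a2 is at 0.20 to 0.29 in every DPM tumour and at -0.37 to -0.16 in every vehicle tumour, whereas the milk list is at 0.21 in vehicle replicate 1 and -0.53 in vehicle replicate 2.

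The genes whose pattern over the 6 tumours was most like that of Slc30a2 were Clec16a (Pearson r = 0.982), Abcc9 (0.979), Prxl2a (0.977), Enpp3 (0.975) and Gdpgp1 (0.975). In all 5 the groups lay apart with DPM higher, as the contrast that chose Slc30a2 leads this measure to favour. Prxl2a had the greatest difference of the 5, at 0.44 (SE 0.10), and Clec16a the smallest, at 0.10 (SE 0.07). In all, 70 of the genes tested (0.468%) had r above 0.9. They included Bhlha15 (0.911) and Cel (0.912), whereas the r of the other 8 family members tested ran from -0.278 for Slc30a9 to 0.284 for Slc30a6. The milk and secretory genes had a median r of 0.403 on this measure. With each group's mean taken off, the likeness to Slc30a2 no longer reads the contrast. The closest genes were then Gsg1 (r = 0.997), Uevld (0.997), Mlf2 (0.994), Gprin3 (0.993) and Ccdc33 (0.992), none of them among the first 5. Their DPM minus vehicle differences ran from -0.09 for Gprin3 to 0.15 for Uevld. The share of genes with r above 0.9 was not computed with the group means taken off. Picking the highest r among all genes tested favours high values, so these are not read as a closer likeness. On that measure the 20 milk and secretory genes had a median r of -0.074, with 10 of them above 0. Cel had 0.841 and Bhlha15 had 0.364. The other family members then ran from -0.417 for Slc30a5 to 0.74 for Slc30a1, with 0.662 for Slc30a3. After normalisation Slc30a1, Slc30a2 and Slc30a3 each had their lowest vehicle level in vehicle replicate 3. As deposited, vehicle replicates 1 to 3 read 491, 491 and 485 for Slc30a2 and 434, 460 and 445 for Slc30a1. For Slc30a3 they read 391, 391 and 399. How far these r depend on the normalisation was not tested. All r given here rest on 6 tumours that share the arrays' normalisation and are descriptions.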

How the data were processed

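RNA of 6 tumours, 3 per group, was labelled with biotin from 100 ng by the Affymetrix procedure, per the labels' protocols. The authors deposited linear intensities, as whole numbers, for 35556 probe sets on each array. Their background correction, summarisation and scaling, and the array's genome build, are not given in the sources used here. Medians ran from 270 to 301, so the arrays had not been equalised. The number of arrays limits the precision.

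Values under 1 were set to 1, and log2 intensities were quantile-normalised over all probe sets. GEO's platform annotation named 1 gene for 21789 probe sets, several for 1621 (left out) and none here for 12146. The Entrez identifier gave the current symbol of 21698, and 91 kept theirs. The probe set with the highest mean stood for each of 19938 genes, and the 14953 at or above the 25th percentile of means entered a limma fit (version 3.58.1, R version 4.3.3; lmFit, eBayes with intensity trend; two-sided; Benjamini-Hochberg over all 14953), without a replicate block. The fit was tried on simulated data with independent noise and added changes of at least 1 log2. These exceed every family difference here, so the fit was not tried at the sizes reported. Promoter windows came from RefSeq.

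The members and lists were chosen with earlier results of these data known. Named were all 10 members, the 3 genes of each pathway list with the smallest p, Mt1, Mt2, Mtf1, Bhlha15 and the 5 genes most like Slc30a2 on each measure. Alpl, Slc39a4 and Slc39a8 were named after their values were seen. Lists were described by counts and medians, with no test. In each list, genes that were not found were not analysed here. Alternatives were other filters, median centring, no normalisation, the mean of all probe sets, each probe set by itself, other variance models, array weights, 16 added before log2, the replicate block, each array left out and both arrays numbered 3 left out.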

Additional observations from a re-analysis of the deposited data

How the results depend on the processing

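The fit called 0 genes under all 18 alternatives, with a smallest adjusted p of 0.184 without vehicle replicate 2, against 0.676 with all arrays. At an unadjusted p under 0.05 limma had 578 genes. The difference of Slc30a2 kept its sign throughout, from 0.36 to 0.48 under the other settings and from 0.39 to 0.50 with 1 array left out. All 3 DPM values of this gene lay above all 3 vehicle values, so leaving arrays out could not change the sign. The value of 0.3632 without both arrays numbered 3 was the one alternative that moved the difference of Slc30a2 by more than its SD within groups. The other members lay near 0 and changed sign in 13 cases. With array weights the differences were -0.0184 for Slc30a4, -0.0309 for Slc30a5 and 0.009 for Slc30a10. With each array left out in turn they ran from -0.1036 to 0.0184 for Slc30a1, from -0.0456 to 0.2227 for Slc30a4, from -0.0721 to 0.1022 for Slc30a5 and from -0.0438 to 0.1958 for Slc30a6. They ran from -0.0463 to 0.131 for Slc30a7, from -0.088 to 0.0309 for Slc30a9 and from -0.1342 to 0.0603 for Slc30a10. The cause was not tested. Without the family's chosen member the median was 0.02 with the filter at the 50th percentile and -0.04 with no filter, where fewer and more members entered.

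With the replicate number as a block, 0 genes were called and the difference of Slc30a2 was 0.46. Deviations of same-numbered arrays correlated at -0.12, 0.11 and 0.371 for numbers 1 to 3, so the numbers were not taken to pair the tumours. DPM replicate 1 correlated best with vehicle replicate 2 (0.166) and DPM replicate 2 with vehicle replicate 1 (0.218), over genes, which are not independent replicates. These 2 pairs and that of the arrays numbered 3 shared 2.81%, 2.69% and 2.83% identical deposited values. Their log2 levels correlated at 0.9909, 0.9915 and 0.991. All other pairs, within or between groups, had at most 1.62% and 0.9882. No block for these pairs was fitted, so SEs and p-values take the tumours as unpaired. The cause was not tested.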

Other observations

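The greatest spread among the zinc importers belonged to Slc39a8, which brings zinc and manganese into cells and was chosen after its values were seen. It measured 8.48, 9.64 and 8.17 in the DPM tumours and 9.31, 9.24 and 8.15 in the vehicle tumours (log2), so that DPM replicate 2 and vehicle replicates 1 and 2 were high and the other 3 low. Treatment did not follow this split, with a difference of -0.13 (SE 0.42). Slc39a4, the importer of dietary zinc and likewise chosen after its values were seen, was highest in the same DPM replicate 2, at 9.96 against 8.85 to 9.42 in the other 5 tumours, where Slc30a6 and Slc30a7 also had their highest levels and Slc30a4 and Slc30a9 their lowest.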
